A study of Mus musculus with 32 samples.

Results

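The comparison described here asked which mRNAs carried more or fewer ribosomes in spheroids silenced for Dhps than in spheroids that had no added aspartate. Spheroids of 4T1, a mouse triple-negative mammary carcinoma cell line, were kept for 5 days in a lung-like medium, one with the nutrient levels of lung interstitial fluid. ASPshDHPS spheroids expressed an shRNA against Dhps and received 700 µM aspartate, and NoASPshSCR spheroids expressed a scramble shRNA and received none. The conditions thus differ in both the hairpin and the aspartate, whose parts cannot be told apart from these 2 conditions alone, and the values against the other conditions are given last. The cells were polyclonal lines made with lentiviral pLKO vectors and selected with puromycin, not single clones. Each spheroid pellet was split on a sucrose gradient into a polysomal fraction (mRNA with more than 3 ribosomes) and a sub-polysomal fraction (fewer than 3), and each fraction was sequenced as an mRNA library. The members of the comparison were chosen by label, and they are the 16 libraries of the 8 pellets of these conditions (4 pellets per condition) out of 32 libraries of 16 pellets. The other 16 libraries came from aspartate-treated spheroids with the scramble hairpin (ASPshSCR) or a hairpin against Grin2d (ASPshGRIN2D), and they entered the fit of all libraries to estimate the spread between pellets.

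DHPS, deoxyhypusine synthase, moves a butylamine group from the polyamine spermidine to a single lysine of the translation factor eIF5A, and DOHH, deoxyhypusine hydroxylase, completes the residue to hypusine. Hypusinated eIF5A binds ribosomes that stall during elongation, best known at runs of proline, and it also acts in termination. The ratio of polysomal to sub-polysomal mRNA reads how many ribosomes sit on an mRNA, which rises with more initiation and also with slower elongation, so the ratio alone does not tell protein output.

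For each of 17757 genes the translation ratio of a pellet is the log2 CPM (read counts scaled to the TMM-normalised library total, with a prior count of 2) of its polysomal library minus that of its sub-polysomal library. A log2 difference of 1 is a doubling. The libraries held no spike-in, so every ratio is relative to the rest of the mRNA of the same library, and a shift shared by all mRNAs would not be seen. The 16 libraries held 12870563 to 21661418 counts, with a median of 18062537.5. The median SD of a gene's log2 ratio over 4 pellets was 0.371 in ASPshDHPS and 0.279 in NoASPshSCR, over the 10887 genes with a mean of at least 50 counts. It was largest in ASPshSCR, at 0.452.

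The silenced gene was measured first. In the sub-polysomal libraries Dhps (chr8:85071757-85075162 of GRCm38, plus strand) had 9.98, 10.8, 10.2 and 8.96 CPM in ASPshDHPS pellets 1 to 4 and 32.1, 30.5, 42.8 and 34.5 CPM in NoASPshSCR pellets 1 to 4. In the polysomal libraries it had 9.35, 13.3, 11.2 and 8.42 CPM and 33.2, 34.9, 26.4 and 26.4 CPM, respectively. The conditions did not overlap in either fraction. The sub-polysomal level fell by 1.80 on the log2 scale (SE 0.164, adjusted p = 1.32e-07 by edgeR's quasi-likelihood test with Benjamini-Hochberg adjustment over all genes) and the polysomal level fell by 1.51 (SE 0.232, edgeR adjusted p = 0.0193). The polysomal call held in 1 of the 8 fits that left out a single pellet, whose log2 differences ranged from −1.63 to −1.42. Because Dhps mRNA was lower in both fractions, its translation ratio differed by 0.27 (SE 0.29, edgeR adjusted p = 0.936), with overlapping pellets. The difference was −0.00476 after a trend on GC content and length, described below, was removed.

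The mRNAs of the other hypusination genes did not pass the test in ratio or level. The polysomal level of Dohh was 176, 106, 140 and 122 CPM in ASPshDHPS and 102, 74.0, 101 and 94.2 CPM in NoASPshSCR, so that the conditions did not overlap, but the log2 difference of 0.56 had an edgeR adjusted p of 0.243. Its ratio differed by 0.29 (SE 0.25), and by −0.09 with the trend on GC content and length removed. Eif5a, the ubiquitous form of the hypusinated factor, was abundant. Its sub-polysomal level was 1955 ± 45.9 CPM in ASPshDHPS and 1884 ± 582 CPM in NoASPshSCR (SD, n = 4), and its ratio differed by 0.31. Eif5a2, the second form, was rare, with polysomal levels of 4.65 ± 3.41 CPM and 4.91 ± 1.39 CPM (SD, n = 4) and a ratio difference of −0.66 (SE 0.46, edgeR adjusted p = 0.859). Its sub-polysomal level was 23.9, 17.2, 14.71 and 16.8 CPM in ASPshDHPS and 14.2, 13.2, 14.69 and 14.2 CPM in NoASPshSCR, which did not overlap by a narrow margin (log2 difference 0.37, edgeR adjusted p = 0.62). Grin2d, which encodes the NMDA receptor subunit silenced in another arm, differed by 0.07 and its sign depended on single pellets.

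**Figure D1:**
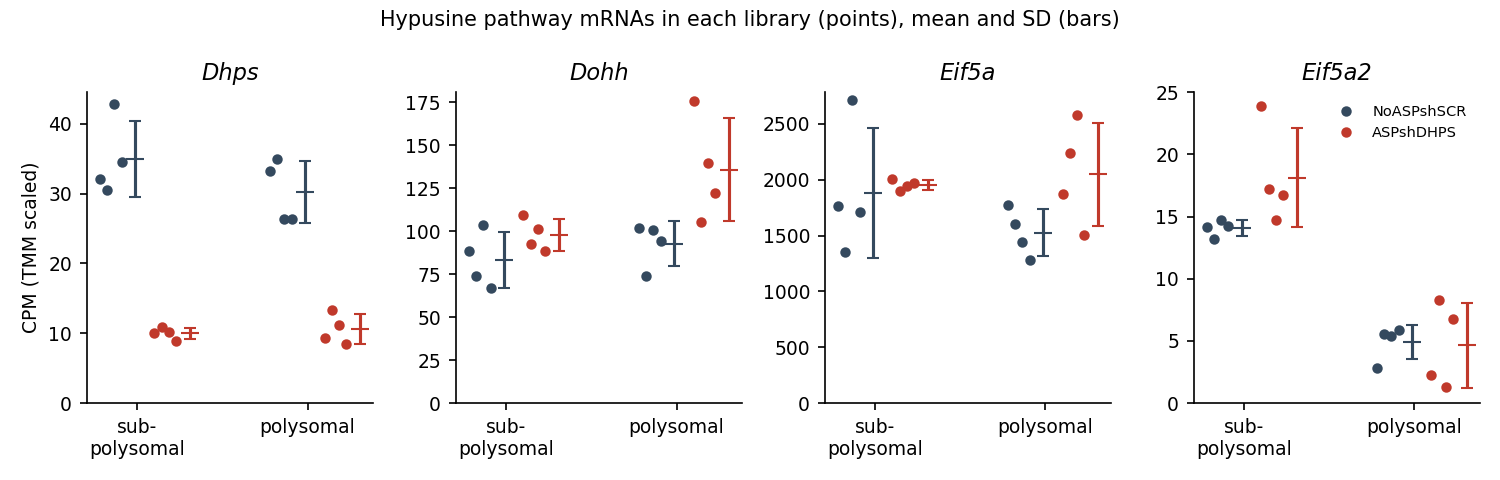
CPM (TMM scaled) of the 4 hypusination genes in each polysomal and sub-polysomal library, with points for the 4 libraries of a group and bars for their mean and SD. The Dhps points of ASPshDHPS lie between 8.42 and 13.3 CPM and those of NoASPshSCR between 26.4 and 42.8 CPM, whereas the other 3 genes overlap, except Dohh in the polysomal libraries (106 to 176 CPM against 74.0 to 102 CPM) and, narrowly, Eif5a2 in the sub-polysomal libraries (from 14.71 CPM against up to 14.69 CPM).

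The mRNAs that separated the conditions best are shown next, because their composition differed. Each line gives 90 bases from the middle of the coding sequence, 5′ to 3′ with G and C in capitals, from the GENCODE M21 transcript of the gene. The first 3 genes had the smallest p among those with a lower ratio in ASPshDHPS, and the other 3 among protein-coding genes with a higher ratio.
Rb1cc1: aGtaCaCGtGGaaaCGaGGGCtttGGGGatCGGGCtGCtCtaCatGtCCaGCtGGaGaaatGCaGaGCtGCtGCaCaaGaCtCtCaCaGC
Nipbl: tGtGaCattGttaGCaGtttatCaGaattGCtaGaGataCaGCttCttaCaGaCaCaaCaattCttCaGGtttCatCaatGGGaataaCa
Pcm1: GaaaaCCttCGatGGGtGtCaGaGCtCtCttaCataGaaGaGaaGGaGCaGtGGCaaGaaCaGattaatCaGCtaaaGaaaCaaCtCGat
Rps26: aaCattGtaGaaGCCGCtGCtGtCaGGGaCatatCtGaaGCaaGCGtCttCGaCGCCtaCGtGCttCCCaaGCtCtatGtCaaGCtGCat
Entpd4: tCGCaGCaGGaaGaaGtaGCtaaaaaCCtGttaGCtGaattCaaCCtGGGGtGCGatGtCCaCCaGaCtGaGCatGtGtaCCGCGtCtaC
Fam89b: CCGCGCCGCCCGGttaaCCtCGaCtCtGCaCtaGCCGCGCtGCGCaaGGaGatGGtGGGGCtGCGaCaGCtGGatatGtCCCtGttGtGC
The stretches of Nipbl (chr15:8290617-8444463 of GRCm38, minus strand) and Pcm1 (chr8:41239752-41332344, plus strand) hold 35.6% and 42.2% G and C. Those of Rps26 (chr10:128624534-128626747, minus strand) and Entpd4 (chr14:69337174-69367270, plus strand) hold 51.1% each, and that of Fam89b (chr19:5728087-5729653, minus strand) holds 65.6%. The stretch of Rb1cc1 (chr1:6206197-6276648, plus strand) is an exception within its gene, with 55.6% against 39.6% over the whole coding sequence.

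No gene passed the test when all 32 libraries shared 1 estimate of the spread. By edgeR's quasi-likelihood test, 0 of 17757 genes (0%) had an adjusted p under 0.05, while 1245 (7.01%) had an unadjusted p under 0.05. Among the latter, 995 (5.6% of all genes) had a lower ratio in ASPshDHPS and 250 (1.41%) a higher one. DESeq2's Wald test on the same libraries called 57 genes, 51 lower and 6 higher. It gave no adjusted p for 6197 of the 17757 genes, so its adjustment covered fewer genes than edgeR's. The pellets of the conditions did not overlap for 745 genes (4.2%) lower in ASPshDHPS and 414 (2.33%) higher.

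The count depended on libraries outside the comparison. When the 16 libraries of the 2 conditions were fitted alone, edgeR called 123 genes (0.693%), of which 109 (0.614%) fell and 14 (0.0788%) rose in ASPshDHPS, and 1734 (9.77%) had an unadjusted p under 0.05, 6.74% of all genes with a lower and 3.03% with a higher ratio. On a single draw of simulated counts every fit of the ratio made more false calls than the threshold implies. The excess was slight for edgeR with 32 libraries, which made the fewest, and a single draw gives no spread for it. The calls are thus taken as less sure than their adjusted p. With only the pellet 1 libraries of ASPshSCR left out of the 32, the lower ratios of Rb1cc1, Nipbl, Pcm1 and Mki67 passed (edgeR adjusted p = 0.0316 for Rb1cc1 and Nipbl and 0.0455 for the other two). In the fit of 16 libraries, leaving out 1 pellet at a time gave 28 calls without ASPshDHPS pellet 3, 57 and 59 without NoASPshSCR pellets 1 and 3, and up to 211 and 253 without ASPshDHPS pellets 2 and 4.

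Among genes with a lower ratio, Rb1cc1 had the smallest p. Rb1cc1 encodes FIP200, a scaffold that starts autophagy. Its ratio was −0.31, −0.40, −0.56 and −0.57 in ASPshDHPS pellets 1 to 4 and 1.04, 0.77, 0.78 and 0.76 in NoASPshSCR pellets 1 to 4. Relative to the rest of each library, the ratio was thus negative in every ASPshDHPS pellet and positive in every NoASPshSCR pellet. The log2 difference was −1.30 (SE 0.23, edgeR adjusted p = 0.0827 with 32 libraries and 0.00133 with 16). Rb1cc1 had 16 ± 0.947 CPM (SD, n = 4) in the polysomal libraries of ASPshDHPS against 42.3 ± 7.04 CPM in NoASPshSCR, a polysomal level that fell by 1.4 on the log2 scale (edgeR adjusted p = 0.0323), and 22 ± 2.03 against 23.8 ± 5.21 CPM in the sub-polysomal libraries.

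Nipbl encodes the loader of cohesin, the ring that holds chromatids together and folds chromatin. Its ratio was −0.56, −0.29, −0.72 and −0.22 in ASPshDHPS and 1.01, 0.60, 0.75 and 1.07 in NoASPshSCR, with no overlap and a log2 difference of −1.30 (SE 0.24, edgeR adjusted p = 0.0827 with 32 libraries and 0.000977 with 16). Pcm1, a scaffold of the satellites around the centrosome, had ratios of −0.42, −0.16, −0.64 and −0.06 against 1.24, 0.52, 0.93 and 1.36, a difference of −1.34 (SE 0.26). For Mki67, which encodes the proliferation antigen Ki-67, they were −0.70, −0.25, −0.88 and −0.26 against 0.82, 0.30, 0.86 and 0.99, a difference of −1.26 (SE 0.25). All 3 followed the pattern of Rb1cc1, with negative ratios in every ASPshDHPS pellet and positive ones in every NoASPshSCR pellet. Mki67 fell from 255 ± 38.8 CPM in NoASPshSCR to 88.3 ± 17.3 CPM (SD, n = 4) in the polysomal libraries of ASPshDHPS (log2 difference −1.52, edgeR adjusted p = 0.0408), and its sub-polysomal levels of 127 ± 29.3 and 152 ± 21.9 CPM did not differ by the test (−0.26).

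The other genes among the 10 of smallest p were Zfp52, a zinc finger gene (−1.77), Dst and Syne1, which encode giant linkers of the cytoskeleton (−1.11 and −1.33), Ppig, a prolyl isomerase of nuclear speckles (−1.24), Filip1l, a filamin-binding protein (−1.26), and mt-Nd6. All 10 had pellets that did not overlap. Their edgeR adjusted p ran from 0.0827 to 0.161 with 32 libraries and from 0.000977 to 0.0101 with 16. In the 8 fits of the 16 libraries that left out 1 pellet, 6 of these genes passed every time and Zfp52, Dst, Syne1 and Filip1l passed in 7 of 8, with adjusted p up to 0.0807. The polysomal log2 difference was below 0 for all 10 (−1.52 to −0.64) and passed edgeR's adjusted test for 5 (Rb1cc1, Nipbl, Pcm1, Mki67 and Ppig), and the sub-polysomal level passed for none.

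mt-Nd6, which encodes a subunit of respiratory complex I and lies on the mitochondrial genome, differed from the rest in its fractions. Its ratio was −2.78, −1.84, −2.42 and −3.05 in ASPshDHPS and −0.48, −1.01, −1.06 and −1.14 in NoASPshSCR (log2 difference −1.63, SE 0.34). Its larger difference was in the sub-polysomal level, 13.6 ± 3.34 CPM against 6.89 ± 1.04 CPM (SD, n = 4), a log2 difference of 0.98 that did not pass (edgeR adjusted p = 0.16), beside −0.64 in the polysomal level. Mitochondrial mRNAs are translated on mitochondrial ribosomes, so their place in this gradient does not read cytosolic translation.

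The 10 genes of smallest p with a higher ratio had a median transcript of 582 nucleotides against 7045.5 for the 10 lower ones. This median rests on the short entries Gm45799, Rps26-ps1, Rps18-ps3, Rab26os and Gm8210 (409 to 483 nucleotides). Rps26 had 681, Fam89b 1197, Ndufa13 1251 and Entpd4 3589 nucleotides. The 10 higher genes had log2 differences from 0.88 to 2.61, edgeR adjusted p from 0.198 to 0.328 with 32 libraries, and pellets that did not overlap for 8 of the 10. In the fit of 16 libraries 6 of the 10 passed. Rps26, a protein of the small ribosomal subunit, had ratios of −0.54, −0.54, −0.46 and −0.07 in ASPshDHPS and −1.46, −1.50, −1.21 and −1.16 in NoASPshSCR, with no overlap, and a difference of 0.93 (SE 0.25). It did not pass edgeR's test with 32 libraries (adjusted p = 0.233) or 16 (adjusted p = 0.0507, passing in 2 of 8 fits without 1 pellet), and DESeq2's Wald test called it with 32 libraries (adjusted p = 0.000593). Ndufa13, a complex I subunit, had 0.57, 0.45, 0.81 and 0.29 against −0.24, −0.46, −0.61 and −0.34, a difference of 0.94 (SE 0.30, edgeR adjusted p = 0.326 with 32 libraries and 0.0305 with 16). ASPshDHPS pellets were thus above 0 and NoASPshSCR pellets below 0 for Ndufa13, but its call in the 16 libraries held in 3 of 8 fits without 1 pellet. Fam89b, of which the GC-rich stretch is shown above, differed by 0.94 (edgeR adjusted p = 0.035 with 16 libraries), a call that held in 4 of these 8 fits, and B3galt6, a galactosyltransferase of proteoglycan linkers, by 0.88 without passing.

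Several of the higher genes may share sequence with close copies, which can split reads between them. Rps26-ps1, Rps18-ps3, Gm8210 and Gm45799 (1.07, 1.64, 1.09 and 1.35) were placed in this class without a test and are given as uncertain. Entpd4, a Golgi and lysosomal nucleotidase, had ratios of −0.81, −1.77, −1.81 and −0.64 in ASPshDHPS and −7.74, −2.46, −3.46 and −3.69 in NoASPshSCR, a difference of 2.61 (SE 0.71, edgeR adjusted p = 1.07e-05 with 16 libraries). Its ratio was also higher in ASPshSCR and ASPshGRIN2D than in NoASPshSCR, by 2.24 and 1.97, without passing. ASPshDHPS differed from these conditions by 0.37 and 0.64, without passing. Gm45799 was alike, with ASPshSCR and ASPshGRIN2D above NoASPshSCR by 1.15 and 1.00. Rps26 (−0.15 and 0.05) and Ndufa13 (−0.25 and 0.02) were not. Entpd4b, a near-identical copy of Entpd4, differed by −1.91 in the opposite direction, so the assignment of reads between the copies is uncertain. The remaining gene of the 10, Rab26os, a noncoding antisense transcript, differed by 1.28 without passing.

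**Figure D2:**
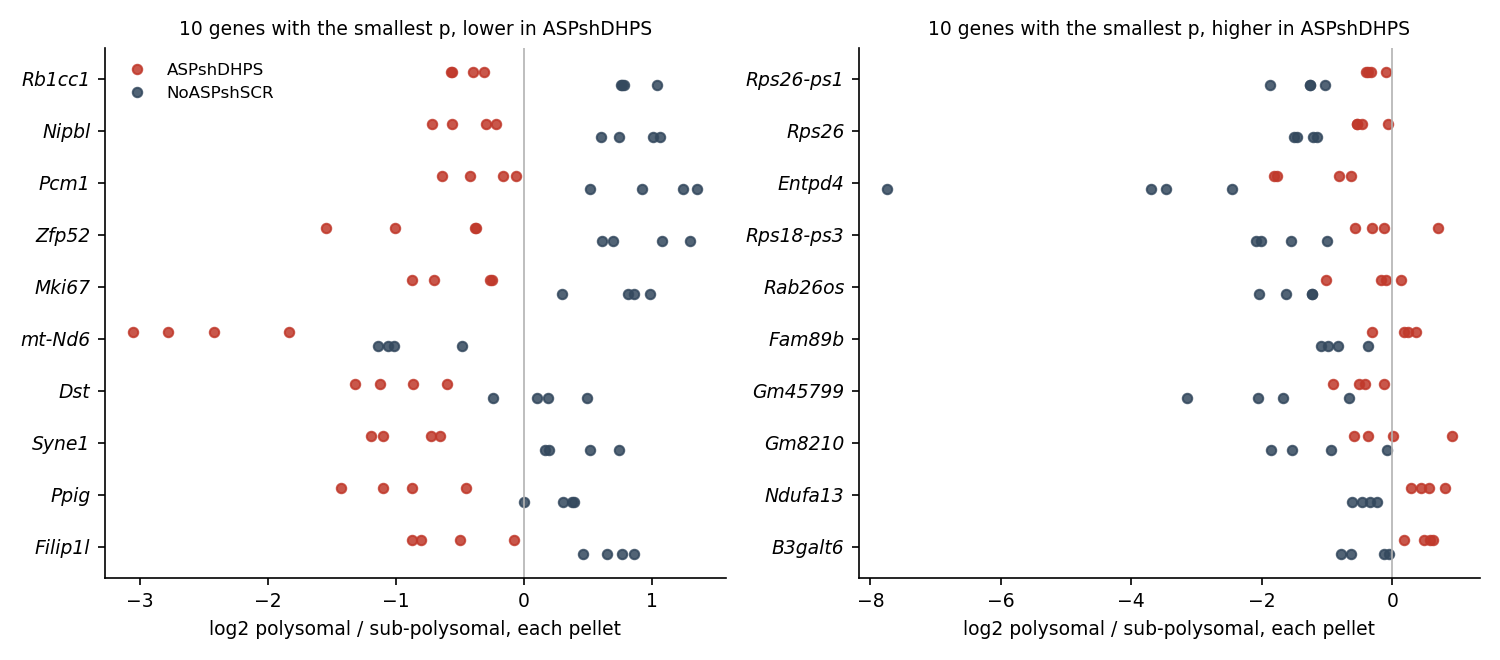
Log2 polysomal to sub-polysomal ratio of each pellet for the 10 genes of smallest p with a lower ratio in ASPshDHPS (left) and the 10 with a higher one (right), with 1 point per pellet. The points of the conditions are apart for all 10 genes on the left and for 8 on the right, and Entpd4 reaches −7.74 in a single NoASPshSCR pellet.

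The lower ratios came with a lower polysomal level. The 109 genes called lower in the fit of 16 libraries had a median polysomal log2 difference of −1.03 and a median sub-polysomal one of 0.10, and the polysomal difference was below 0 for 109 of them and the sub-polysomal one for 41. The 14 higher genes had medians of 1.12 and −0.33. Besides the genes above, the 109 included genes of chromosome structure (Stag1, Stag2, Smc6, Rad50, Top2b, Atrx), of mitosis and the centrosome (Cenpe, Aspm, Kif15, Cep135, Cep350, Akap9) and of the Golgi and endosomes (Golga4, Golim4, Tmf1, Eea1). These names were chosen after their values were seen, and no enrichment was tested.

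**Figure D3:**
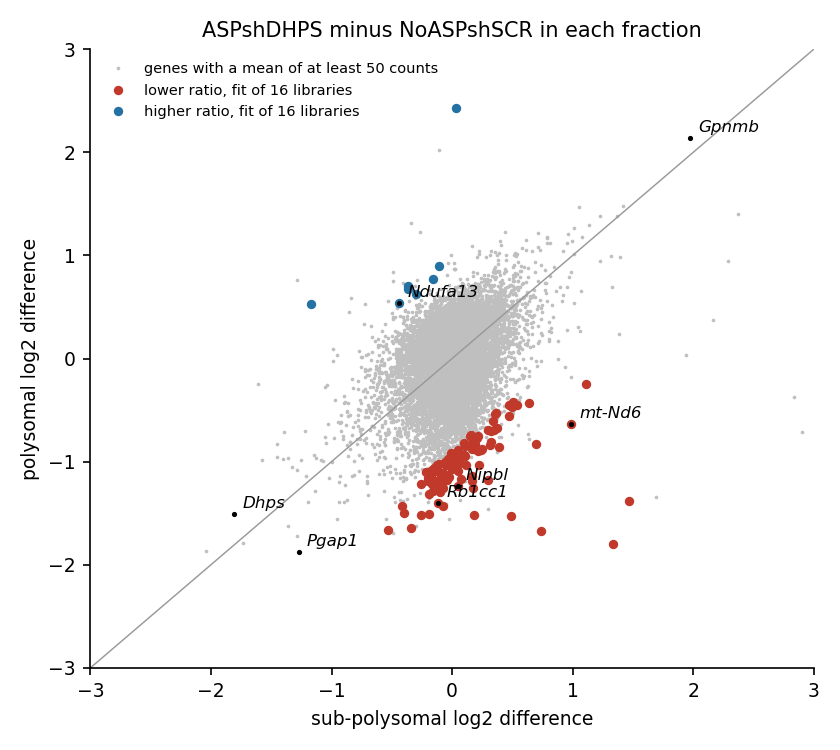
Log2 difference of ASPshDHPS minus NoASPshSCR in the polysomal level (vertical) against the sub-polysomal level (horizontal) for the 10887 genes with a mean of at least 50 counts, 3 of which lie outside the axes. The 102 genes called lower in ratio (red) lie mostly below −0.4 on the vertical axis near 0 on the horizontal one. The 10 called higher (blue) have values above the diagonal, but Gm20431 and Exosc6 among them lie outside the axes (polysomal differences of 9.02 and 6.97). Dhps and Gpnmb lie close to the diagonal of equal change.

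The number of levels that changed within a fraction depended on the fit. In the polysomal libraries 36 genes (0.203%) passed edgeR's test, 6 (0.0338%) higher and 30 (0.169%) lower in ASPshDHPS, and 2204 (12.4%) had an unadjusted p under 0.05, 4.33% of all genes higher and 8.08% lower. In the sub-polysomal libraries 48 genes (0.27%) passed, 12 (0.0676%) higher and 36 (0.203%) lower, and 1472 (8.29%) had an unadjusted p under 0.05, 4.44% higher and 3.85% lower. Only 4 genes passed in both fractions, namely Dhps, Gpnmb, Prnd and Pgap1, while 34 of the 36 polysomal and 47 of the 48 sub-polysomal calls had the same sign in the other fraction. DESeq2's Wald test gave 456 polysomal and 149 sub-polysomal calls, and edgeR on the 8 libraries of the 2 conditions in a fraction 364 and 119. Gpnmb, a transmembrane glycoprotein of lysosomes and melanosomes, rose in the polysomal libraries from 21.9 ± 12.5 to 95.4 ± 19.4 CPM (SD, n = 4), a log2 difference of 2.14 (edgeR adjusted p = 0.0306), and in the sub-polysomal libraries from 8.10 ± 3.34 to 31.7 ± 7.77 CPM, 1.97 (adjusted p = 0.000623). Prnd, which encodes the prion-like protein doppel, rose in both fractions (1.39 and 1.37). Neu1, the lysosomal sialidase, rose in the polysomal libraries by 1.21 (edgeR adjusted p = 0.0193), as did Gpc4, a cell surface proteoglycan (1.38), and Chchd10, a mitochondrial protein (1.23). The polysomal calls are weak in number, since 0 to 6 genes passed when 1 pellet was left out, and in that fraction the calls of Gpnmb and Neu1 were each lost in 6 of 8 such fits and those of Prnd, Gpc4 and Chchd10 in all 8.

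Among the genes that fell, Pgap1, which remodels the lipid anchor of GPI-linked proteins, was lower in the polysomal (−1.88, edgeR adjusted p = 0.0193) and the sub-polysomal libraries (−1.27, adjusted p = 0.00752). Lrrcc1, a centrosomal protein, Hmgn5, a nucleosome-binding protein, and Nhs fell in the polysomal libraries (−1.66, −1.65 and −1.62), and their ratio differences were −1.16, −1.31 and −1.30, of which those of Lrrcc1 and Hmgn5 passed in the fit of 16 libraries. The sub-polysomal level fell for Mgat3, a glycosyltransferase of N-glycans (−2.04, edgeR adjusted p = 0.000707), Lsp1, an actin-binding protein (−1.61), Camk2n1, an inhibitor of CaM kinase II (−1.58), and Ap1m2, an epithelial clathrin adaptor subunit (−1.45), and it rose for H2ac19, a histone (2.37), Lncenc1, a noncoding RNA (1.41), and Fam171b (1.39). The polysomal levels of Fam171b and Lsp1 differed by 0.24 and −0.25, and their ratios by −1.22 and 1.28, none of which passed. Without 1 pellet at a time the sub-polysomal count ran from 18 (without NoASPshSCR pellet 1) to 69 (without NoASPshSCR pellet 3), and it was 20, 22, 27 and 26 without ASPshDHPS pellets 1 to 4 and 24 without NoASPshSCR pellet 2.

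The ratio difference varied with the composition of the transcript. Across 10832 genes (those averaging 50 counts or more and having a GENCODE transcript), it followed the GC content of the transcript, with a Spearman correlation across genes of 0.62, and its length, with −0.46. Genes share libraries and are not replicates, so these values are descriptions. The correlation with GC content was 0.58 for the polysomal level and −0.01 for the sub-polysomal level. In 5 classes of equal size from the lowest to the highest GC content, the median log2 ratio difference was −0.39, −0.15, 0.02, 0.16 and 0.24. The median polysomal differences were −0.34, −0.10, 0.04, 0.18 and 0.26, and the sub-polysomal ones lay between 0.01 and 0.02.

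Individual pellets carried this unequally. The median ratio of the class lowest in GC content (31.9% to 44.6%, 2166 genes) was −0.45, 0.11, −0.30 and 0.17 in ASPshDHPS pellets 1 to 4 and 0.25, 0.30, 0.35 and 0.44 in NoASPshSCR pellets 1 to 4. ASPshDHPS pellets 1 and 3 were far below the others, and the conditions did not overlap. In the class highest in GC content the medians were 0.37, −0.10, 0.05 and −0.26 against −0.11, −0.19, −0.31 and −0.19, and the conditions overlapped through ASPshDHPS pellet 4. Without ASPshDHPS pellet 1 the correlation with GC content was 0.38, and over the 8 fits it reached 0.69 (without ASPshDHPS pellet 4).

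**Figure D4:**
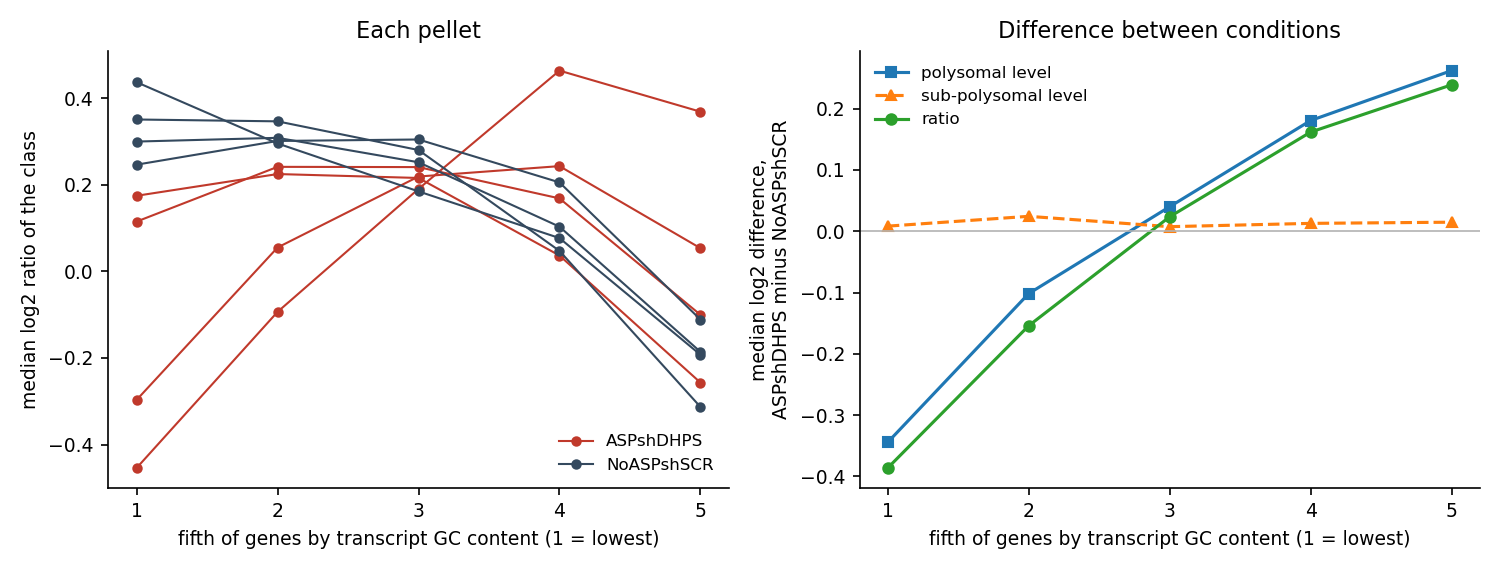
Left, median log2 polysomal to sub-polysomal ratio of each pellet in 5 classes of genes by transcript GC content, with 1 line per pellet. Right, median log2 difference between conditions in the same classes for the polysomal level, the sub-polysomal level and the ratio. The polysomal and ratio lines rise from −0.34 and −0.39 to 0.26 and 0.24, while the sub-polysomal line stays at 0.01 to 0.02.

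Lower and higher ratios lay at opposite ends of this gradient. Of the 995 genes with a lower ratio at an unadjusted p under 0.05, the classes from lowest to highest GC content held 583, 203, 74, 14 and 4 of those with at least 50 counts, and of the genes with a higher ratio they held 3, 13, 22, 58 and 78. The 109 genes called lower with 16 libraries had a median GC content of 42.1% and a median transcript of 5732 nucleotides, where all genes had 50.3% and 2477. GC content was below the median of all genes for 102 of the 107 that had a transcript, and 94 were longer than the median. The 14 higher genes had 56.8% and 1224 nucleotides.

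Length and GC content went together but each kept a gradient within the other. Among the longest transcripts (the class from 4844 nucleotides up), the median ratio difference was −0.58 in the class lowest in GC content (662 genes) and 0.03 in the class highest in it (232 genes). Among the shortest (up to 1600 nucleotides), it was −0.13 (244 genes) and 0.35 (566 genes). After a smooth trend on GC content and length was removed from every library, 0 genes passed in the fit of 32 libraries and 641 had an unadjusted p under 0.05, and 6 passed in the fit of 16. Under this adjustment Rb1cc1 differed by −0.64, Nipbl by −0.74 and Zfp52 by −1.35 in the 32 libraries, none of which passed. Of the 109 genes called lower with 16 libraries, 3 were still called. They were mt-Rnr1, a mitochondrial ribosomal RNA, and Rnu1a1 and Gm49510, with means of only 34.125 and 11.375 counts. The higher genes still called were Entpd4, Gm20431 and Gm14308. The cause of the gradient was not tested.

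The ratio difference was also set beside runs of proline. The longest run of prolines was taken from the annotated coding sequence of 10366 genes. The median ratio difference was 0.02 for genes with fewer than 3 prolines in a row (7756 genes), −0.03 with 3 (1725 genes), −0.03 with 4 (481 genes) and −0.13 with 5 or more (404 genes). Among the longest coding sequences the same 4 medians were −0.25, −0.20, −0.18 and −0.26, with no order, and among the shortest they were 0.13, 0.24, 0.21 and 0.35, the last over 11 genes. Among the transcripts lowest in GC content they were −0.36, −0.54, −0.53 and −0.54, the last of these over 52 genes. In the next class by GC content they were −0.12, −0.27, −0.30 and −0.42, and in the highest 0.26, 0.22, 0.18 and 0.19.

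Ribosomal protein mRNAs, whose 5′ terminal oligopyrimidine tracts tie them to growth signals, had ratios below the median gene in every pellet and a ratio difference between conditions above it. The ratio difference was above 0 for 79 of 79 cytosolic ribosomal protein genes, with a median of 0.45 beside −0.00 for all genes, and 18 had an unadjusted p under 0.05, all of them higher, where 1.41% of all genes did. None passed edgeR's adjusted test, and DESeq2's Wald test called 2 of the 79, Rps26 (0.99, adjusted p = 0.000593) and Fau (0.70, adjusted p = 0.0481). Both were higher, and among all genes to which it gave an adjusted p that test called 6 higher and 51 lower. The median of the list in each pellet was −0.96, −0.76, −0.62 and −0.23 in ASPshDHPS and −1.26, −1.44, −0.95 and −0.85 in NoASPshSCR, so the conditions overlapped at ASPshDHPS pellet 1. Rpsa, the most abundant member, had ratios of −1.55, −2.33, −1.43 and −1.45 against −2.10, −2.60, −2.09 and −1.78, which also overlapped, and a difference of 0.45 (SE 0.45). The share of counts in these mRNAs was 7.83 ± 0.808% against 6.91 ± 0.760% in the polysomal and 12.3 ± 1.96% against 14.1 ± 2.34% in the sub-polysomal libraries (SD, n = 4).

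Nuclear and mitochondrial genes of respiration had medians of opposite sign. Their transcripts also differed in length and GC content from those of all genes. The median transcript was 1302 nucleotides for mitochondrial ribosomal proteins and 861 for nuclear-encoded respiratory subunits. The class of shortest transcripts had a median ratio difference of 0.20. Mitochondrially encoded mRNAs had a median GC content of 37.1%, and the class lowest in GC content had a median of −0.39. The ratio difference was above 0 for 67 of 78 mitochondrial ribosomal protein genes (median 0.24) and for 68 of 77 nuclear-encoded respiratory chain subunits (median 0.20), and 1 and 4 of them had an unadjusted p under 0.05 with a higher ratio, where 1.41% of all genes did. The count for mitochondrial ribosomal proteins is near that share. The pellet medians of both lists overlapped between ASPshDHPS and NoASPshSCR. They ran from 0.11 to 0.56 against −0.17 to 0.20 for mitochondrial ribosomal proteins, and from −0.20 to 0.37 against −0.37 to 0.21 for the respiratory subunits. Mrpl4 differed by 0.52 and Atp5b, the catalytic subunit of ATP synthase, by 0.36. It was below 0 for 13 of 13 mitochondrially encoded mRNAs (median −0.58), of which 2 had an unadjusted p under 0.05 with a lower ratio, where 5.6% of all genes did. The pellet medians of these mRNAs were −4.52, −3.80, −3.72 and −3.15 against −3.74, −3.39, −2.56 and −3.29, which overlapped. Their most abundant member, mt-Co1, differed by −0.70 without passing, and together they took 0.516 ± 0.212% of polysomal counts in ASPshDHPS and 0.763 ± 0.221% in NoASPshSCR (SD, n = 4).

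Translation factors had no common direction. Among 41 initiation factors 3 had a lower and 1 a higher ratio at an unadjusted p under 0.05, with a median of 0.10. Both counts are near the shares of all genes (5.6% lower and 1.41% higher). Eif5b, the GTPase that joins the ribosomal subunits, had ratios of 0.04, −0.11, 0.10 and 0.40 in ASPshDHPS and 1.09, 0.65, 0.95 and 1.60 in NoASPshSCR. These did not overlap, and the log2 difference of −0.96 (SE 0.26) had an edgeR adjusted p of 0.233 with 32 libraries and 0.0353 with 16. Eif3a differed by −0.91 (edgeR adjusted p = 0.0488 with 16 libraries). In the fit of 16 libraries 2 of the 41 were called lower, where 0.614% of all genes were. Pellets did not overlap for 4 lower and 2 higher initiation factors (4.2% and 2.33% of all genes). Among 17 elongation and release factors (median 0.24) the smallest p belonged to Abce1, the ribosome recycling factor, at −0.67 with overlapping pellets. In the 24 genes of hypusine and polyamine metabolism (median 0.27) it belonged to Srm, spermidine synthase, at 0.55. The 22 cytosolic aminoacyl-tRNA synthetases had a median of 0.05, with Eprs at −0.56.

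Lists of the integrated stress response and of aspartate had few members with a small p. The 10 mRNAs with regulatory upstream reading frames had a median of 0.22, the 25 targets of ATF4 a median of 0.18 (19 above 0) and the 19 genes of aspartate metabolism 0.21. At an unadjusted p under 0.05, 1 of the first list was lower and 1 higher, and 0 of the other two lists, where 5.6% of all genes were lower and 1.41% higher. Atf4 itself differed by 0.14 (SE 0.26), and by −0.08 with the trend on GC content and length removed. Ibtk, with an inhibitory upstream reading frame, differed by −0.62, with pellets that did not overlap. Asl, the argininosuccinate lyase of the urea cycle, differed by 0.55 without passing. Lists of 37 proteasome subunits (0.09), 21 selenoproteins (0.03), 23 endoplasmic reticulum chaperones (0.02), 27 cytosolic and mitochondrial chaperones (0.09), 21 autophagy and lysosome regulators (0.07), 22 snoRNA host and nuclear noncoding RNAs (0.02) and 7 mRNAs with iron-responsive elements (0.36) are given with their medians. Within them Psmd13 (0.55) and Xbp1 (0.43) had higher ratios with no overlap, Mitf had a lower one with overlap (−0.91), and none passed edgeR's test with 32 libraries. Malat1, a nuclear noncoding RNA, had ratios of −3.76, −2.50, −2.57 and −4.30 against −0.64, −1.52, −2.18 and −2.38, with no overlap and a difference of −1.58 (edgeR adjusted p = 0.00133 with 16 libraries). As a nuclear RNA it is not translated, and its ratio reads where it sediments.

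Signalling and matrix genes gave few calls. Of 27 TGF-β ligands, latency proteins and receptors (median −0.02), 5 had a lower ratio at an unadjusted p under 0.05 and 0 a higher one, where 5.6% and 1.41% of all genes did. Inhba, which encodes the activin A subunit, had ratios of −1.49, −0.12, −0.97 and −0.40 in ASPshDHPS and 0.31, 0.54, 0.22 and 0.34 in NoASPshSCR. They did not overlap, and the log2 difference of −1.11 (SE 0.32) had an edgeR adjusted p of 0.242 with 32 libraries and 0.0392 with 16. Its polysomal level fell from 18.6 ± 3.04 to 6.59 ± 1.69 CPM (SD, n = 4, log2 difference −1.49, edgeR adjusted p = 0.0306). The median of the list in each pellet was −0.08, −0.18, −0.58 and −0.40 in ASPshDHPS and 0.14, 0.23, 0.27 and 0.13 in NoASPshSCR, without overlap. The differences of single genes went both ways, with 15 below 0 and 12 above, around their median of −0.02. The separation of the pellet medians is thus not a fall shared by the list. Ltbp3, the most abundant member, which binds latent TGF-β, differed by 0.35.

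Of 25 SMAD proteins and their regulators (median −0.22), 19 were below 0 and 6 had a lower ratio at an unadjusted p under 0.05, where 5.6% of all genes did, a share that also stands beside the counts of the next lists. The median transcript of this list was 5309 nucleotides, and in the class from 4844 nucleotides up 482 of 2167 genes were lower at that p. With the trend on GC content and length removed the median of the list was −0.0650. Arid4b, a chromatin protein in this list, differed by −1.25 with no overlap (edgeR adjusted p = 0.0236 with 16 libraries). The 14 TGF-β target genes had a median of 0.07, with the transcription factor Zeb2 at −0.81 and overlapping pellets. Of 31 genes of the ERK pathway (median −0.11) 5 were lower at an unadjusted p under 0.05. The median transcript was 4449 nucleotides in the ERK list and 4138.5 in the next. Of 22 genes of the NMDA receptor and CREB (median −0.17) 4 were lower, led by the coactivator Crebbp (−0.66, no overlap), and the median was −0.0108 under DESeq2's Wald test. The 26 collagen chains had a median of −0.19 (Col12a1 −1.92, no overlap), the 25 collagen folding and crosslinking enzymes 0.28 (P4hb 0.47) and the 19 integrin subunits −0.12 (Itga2 −0.60), and none of these 70 genes passed in either edgeR fit.

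Zinc finger genes were the large list that lay lowest. Of 349 genes named Zfp, 255 were below 0, with a median of −0.36, and 64 had a lower and 4 a higher ratio at an unadjusted p under 0.05, where 5.6% and 1.41% of all genes did. The pellets did not overlap for 46 lower and 3 higher genes (4.2% and 2.33% of all genes), and 8 were called lower with 16 libraries (0.614% of all genes). The pellet medians of this list are plotted with those of the others, and its transcripts had a median GC content of 44.1%. With the trend on GC content and length removed the median was −0.08.

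**Figure D5:**
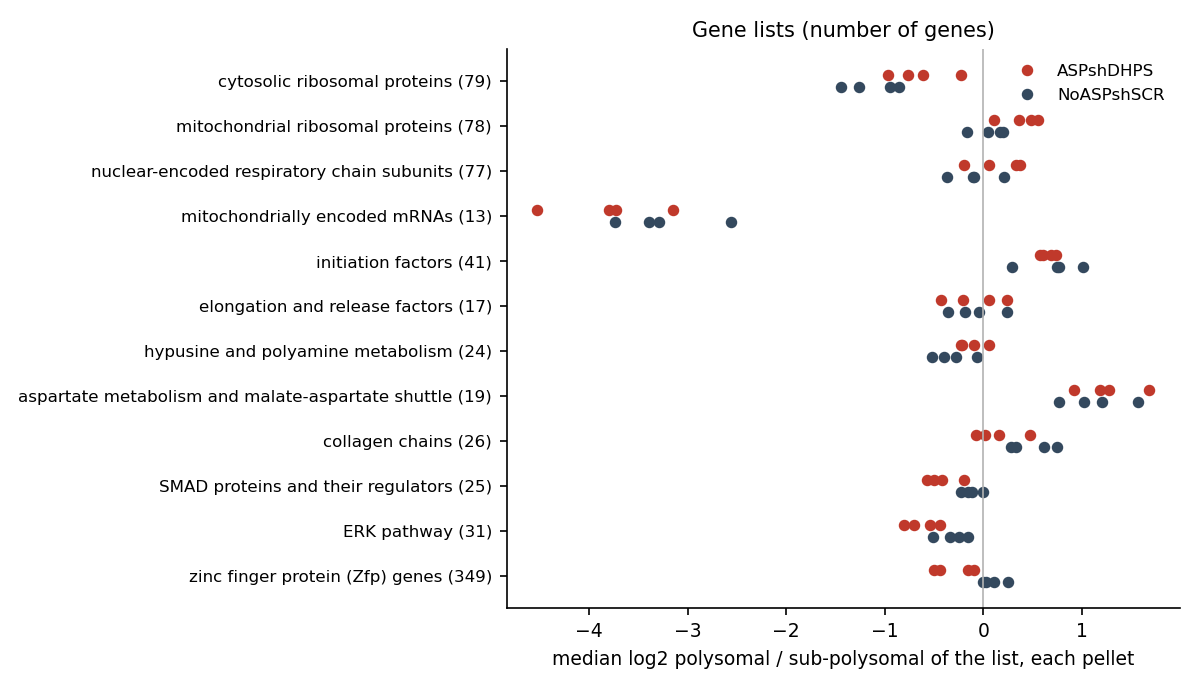
Median log2 polysomal to sub-polysomal ratio of 12 gene lists in each pellet, with 1 point per pellet and the number of genes in brackets. Zinc finger genes lie lower and ribosomal protein genes higher in ASPshDHPS than in NoASPshSCR, and the pellets of the conditions overlap for ribosomal proteins.

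The cell type labels were checked against marker genes. All 8 epithelial markers were counted, with a median ratio difference of 0.29 and Krt8 the most abundant at 1861 ± 584 CPM (SD, n = 4) in the polysomal libraries of ASPshDHPS. Endothelial markers were at the background, with only Pecam1 counted, at a mean of 3.375 counts, and of the haematopoietic markers 2 were counted, Ptprc with a mean of 5.6875 counts and Cd68 with 22.1 ± 3.48 against 11.2 ± 2.46 CPM in the polysomal libraries (SD, n = 4, edgeR adjusted p = 0.059). Of 6 fibroblast markers Pdgfra and Thy1 were counted, with ratio differences of −0.42 and −0.04. Epithelial marker levels moved with the condition in the sub-polysomal libraries, where Krt7, Krt19 and Krt14 fell by 0.78, 0.80 and 0.65 (edgeR adjusted p = 0.0414, 0.0445 and 0.0455). Their sum over 8 genes was 2470 ± 293 CPM in ASPshDHPS and 3548 ± 545 CPM in NoASPshSCR in that fraction, and 5984 ± 1479 and 6480 ± 1846 CPM in the polysomal one (SD, n = 4). The part of these markers in the ratios was not tested.

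The other aspartate-treated conditions placed these values. Side by side, and sharing the ASPshDHPS pellets, Rb1cc1 differed by −1.30 from NoASPshSCR, by −1.24 from ASPshGRIN2D and by −1.23 from ASPshSCR, and Nipbl by −1.30, −1.02 and −1.23. The difference of ASPshGRIN2D from NoASPshSCR was −0.06 for Rb1cc1 and −0.28 for Nipbl, and that of ASPshSCR from NoASPshSCR was −0.07 and −0.08. The edgeR adjusted p of Rb1cc1 and Nipbl was 0.0906 and 0.286 against ASPshGRIN2D and 0.0376 for both against ASPshSCR. For the other genes of the 10 with the smallest p, ASPshGRIN2D differed from NoASPshSCR by −1.11 (mt-Nd6), −0.62 (Syne1), −0.54 (Zfp52), −0.51 (Dst), −0.43 (Pcm1), −0.38 (Mki67), −0.19 (Ppig) and −0.13 (Filip1l). All 10 were chosen for their difference between ASPshDHPS and NoASPshSCR, so these values are a description. Over all genes, edgeR called 37 (0.208%) against ASPshSCR and 1 (0.00563%, Zfp946) against ASPshGRIN2D, where 13.6% and 6.41% of genes had an unadjusted p under 0.05. It called 0 between ASPshGRIN2D and NoASPshSCR and 0 between ASPshSCR and NoASPshSCR, where 1.1% and 1.93% had one. In the class lowest in GC content the median differences of ASPshDHPS were −0.39, −0.40 and −0.50 from NoASPshSCR, ASPshGRIN2D and ASPshSCR, and those of ASPshGRIN2D and ASPshSCR from NoASPshSCR were 0.01 and 0.10. In the class highest in GC content they were 0.01 and −0.17.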

How the data were processed

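The deposited values are counts. Per the labels and methods, the authors trimmed reads (Trim Galore 0.6.6, FastQC 0.11.9), aligned them to GRCm39 (STAR 2.6.1), quantified genes with Salmon 1.4.0, rounded the estimates and left out genes not expressed in enough replicates, which gave 17757 genes without normalization. The Illumina Stranded mRNA kit was used. The authors' comparison tables, made with DESeq2 1.34.0, were not used.

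Ratios were tested with edgeR 4.0.16 (R 4.3.3) after TMM normalization, with 1 coefficient per pellet and 1 polysomal coefficient per condition over all 32 libraries, two-sided, with Benjamini-Hochberg adjustment at 0.05. Levels were fitted per fraction over its 16 libraries. Alternatives were DESeq2 1.42.0, the 16 libraries alone, other scalings and filters, a replicate block, single pellets left out and, chosen after seeing the data, the alternatives to the fit of 16 libraries and a trend on GC content and length (mgcv 1.9.3). Sequences and transcript properties came from GENCODE M21 (GRCm38), matched by gene to 97.5% of the genes, and no coordinates were converted. Replicates differed beyond counting noise (chi-square per degree of freedom 26.8 to 135). The tests were checked on a single draw of simulated counts. There every ratio fit made more false calls than the threshold implies, edgeR with 32 libraries the fewest and only slightly more, and missed most of the smaller changes.

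The members, gene lists and tests were chosen with earlier results of these data known. Genes were named by rule: the hypusination genes, the 10 of smallest p in each direction of the ratio (none passed) with a mean of at least 50 counts, up to 5 per direction and fraction for levels, and the member of smallest p and the most abundant member of each of 31 lists, not all of which are printed. Hallmark gene sets came from the deposited collection. The pellets were independent per the methods.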

Additional observations from a re-analysis of the deposited data

Results flagged for a closer look

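Of 112 groups of 4 pellets checked (56 genes in 2 conditions), 5 held a pellet far from the other 3 (4.46%), and chance gives about 1 in 20. Rb1cc1 had a ratio of 1.04 in NoASPshSCR pellet 1, above the others of its condition, which widens its gap to ASPshDHPS. Rpsa had −2.33 in ASPshDHPS pellet 2, mt-Co1 −2.13 in NoASPshSCR pellet 3, Atp5b 2.27 in ASPshDHPS pellet 1 and Atf4 −1.26 in NoASPshSCR pellet 3. The values are log2 ratios, and no pellet was behind more than 2 of the 5.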

How the results depend on the processing

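For the ratio, edgeR called 0 genes with all 32 libraries, 123 with the 16 libraries alone, 10 with the 24 libraries without ASPshSCR, 4 with the 30 libraries without ASPshSCR pellet 1, 5 when only genes that reached 10 counts in all libraries were kept and 2 after filterByExpr, and DESeq2's Wald test called 57. The 5, 4 and 2 all lay among Nipbl, Rb1cc1, Pcm1, Mki67 and Zfp52. Other scalings, the robust fit, the fit without pellet terms, the trend removal and the fits without 1 pellet gave 0. In the 16 libraries the count was 60 with that minimum, 6 with the GC and length trend removed, and 28 to 253 without 1 pellet. DESeq2's Wald test gave 149 sub-polysomal and 456 polysomal level calls against edgeR's 48 and 36, and the 8 libraries of the 2 conditions alone gave 119 and 364. Without 1 pellet edgeR called 18 to 69 sub-polysomal and 0 to 6 polysomal genes, and the polysomal Dhps difference ran from −1.63 to −1.42. Why the counts moved was not tested.

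The replicate numbers were not taken as pairs, since the labels give no shared origin and not every same-numbered pair correlated. Same-numbered pellets had r = 0.139, 0.342, −0.028 and 0.371 in their deviations over 10887 genes, the 12 other pairs a median of −0.0763 and a highest r of 0.274, and 5 of 8 pellets correlated best with their own number, a hint of pairing from the data. With a replicate block the ratio gave 1 call (Rnu1a1) in 32 libraries and 500 in 16, and the levels 157 sub-polysomal and 518 polysomal calls.

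With the trend on GC content and length removed, the sign turned for Dhps (−0.00476), Dohh (−0.0893), Pgap1 (0.0907) and Atf4 (−0.0769), and the class medians became 0.00329 and 0.0046 (lowest and highest GC content), −0.0650 (SMAD list) and −0.0828 (zinc finger genes). Grin2d ranged from −0.294 (without ASPshDHPS pellet 1, and −0.106 without NoASPshSCR pellet 2) to 0.389. The median of the NMDA receptor and CREB list was −0.0108 under DESeq2's Wald test, that of the haematopoietic markers 0.451 with that minimum, which only Cd68 met, and the 1 endothelial marker ranged from −2.15 to 0.615 without 1 pellet. Of the scalings, DESeq2's size factors moved the median of all genes most, by 0.0579. The remaining 1056 ratios of named genes under alternatives kept their direction and side of the threshold, and 57 newly passed it, while 96 levels of named genes lost their call and 177 kept it.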

Other observations

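Mitochondrial ribosomal RNAs, which poly(A) selection should largely leave out, had lower ratios in ASPshDHPS. They were chosen after their values were seen. The ratio of mt-Rnr1 was −3.41, −3.06, −2.22 and −4.91 in ASPshDHPS pellets 1 to 4 and −0.66, −1.65, −0.14 and −1.64 in NoASPshSCR pellets 1 to 4, without overlap, a log2 difference of −2.36 (edgeR adjusted p = 0.353 with 32 libraries and 5.26e-07 with 16). The ratio of mt-Rnr2 differed by −2.05 (edgeR adjusted p = 4.21e-05 with 16 libraries), also without overlap. The sub-polysomal level of mt-Rnr1 had a log2 difference of 1.47 and the polysomal level one of −1.38, neither of which passed.

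Of 50 Hallmark gene sets, 19 had a negative and 31 a positive median ratio difference. The lowest medians were −0.26 for genes repressed by ultraviolet light (24 of 127 genes lower at an unadjusted p under 0.05), −0.20 for the mitotic spindle (43 of 198) and −0.17 for Hedgehog signalling (2 of 28, near the 5.6% of all genes), followed by −0.15 for the G2/M checkpoint (36 of 198). The highest were 0.18 for oxidative phosphorylation, 0.17 for adipogenesis and 0.14 for the second set of MYC targets, with 1, 4 and 4 genes lower and 4, 1 and 1 genes higher at an unadjusted p under 0.05 (of 199, 188 and 58). Of all genes 5.6% were lower and 1.41% higher, and the counts of higher genes in these sets are near that share. Adipogenesis and the MYC set held more lower than higher genes at this threshold. The median transcript was 4663 nucleotides in the first of these sets and 1557 in oxidative phosphorylation, with GC contents of 48.7% and 49.9%.

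A pair of gene copies, Zc3h11a and a second locus of the same name, differed by −3.31 and 4.95 in ratio, opposite in sign like Entpd4 and Entpd4b, and their values are uncertain because the copies share reads.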
